A study of Mus musculus with 24 samples.

Results

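The transcripts described here encode enzymes that modify the PERIOD (PER) and CRYPTOCHROME (CRY) proteins of the circadian clock after translation. They were chosen by name, with all 24 libraries read for each, and 7 of the 53465 listed genes are members: the protein kinase genes Csnk1d, Csnk1e, Csnk2a1, Gsk3b and Prkaa1 and the ubiquitin ligase genes Btrc and Fbxw11. All 7 were among the 15493 genes that passed the filter on low values, which asks that 6 or more mice of a genotype have at least 5 normalized reads. RNA came from CD31-positive endothelial cells, the lining of the blood vessels, sorted from the brain of 1 C57BL/6J mouse per library. The controls were 12 Bmal1fl/fl mice, which carry a floxed Bmal1 (listed as Arntl) and no Cre. The mutants were 12 mice of genotype Bmal1fl/fl; Tie2cre, in which Cre from the Tie2 promoter removes the floxed exon in endothelial cells and, as is known of this promoter, in blood cell lineages. All animals were fed freely under 12 h of light and 12 h of dark, and 2 mice of each genotype were collected at zeitgeber time (ZT, hours after lights on) 2, 6, 10, 14, 18 and 22. Mice of both sexes were used, and the sex and age of single animals are not given in the sources used here.

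PER and CRY proteins repress the transcription factor pair CLOCK and BMAL1, and how long they last sets much of the pace of the clock. Casein kinase 1 phosphorylates PER, the phosphorylated PER is recognized by β-TrCP, and the SCF ubiquitin ligase that holds β-TrCP marks it for the proteasome. CRY is phosphorylated by AMP-activated protein kinase and glycogen synthase kinase 3, and it too is ubiquitylated and degraded. These steps act on proteins. The present measurements are of the enzymes' transcripts, and neither the enzymes' activity nor PER and CRY protein was measured in these libraries.

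The comparisons made for each member were its level between genotypes, a 24-h rhythm within each genotype, a rhythm common to both genotypes, and a difference in rhythm between genotypes. Values are reads per gene as the authors normalized them, and totals per library lay between 6136404 and 6648311. Markers of brain endothelium were high in every library, with Cldn5 at 2385 to 8008 reads and Pecam1, the gene of the sorted CD31 antigen, at 4971 to 10290. The 8 libraries of ZT6 and ZT18 carry consecutive library numbers and stood apart from the other 16. The summed level of 10 endothelial markers was 18638 to 19962 rpm (reads per 1000000 reads of the library) in those 8 and 12040 to 17234 in the others. The summed level of 8 markers of microglia and macrophages was 181 to 303 rpm in the 8 and 1571 to 4262 in the others, and none of these 8 markers was at 0 in all libraries. Over all 24 libraries the summed markers of pericytes and smooth muscle ran from 1498 to 3873 rpm, of astrocytes from 747 to 3300 rpm, of oligodendrocytes from 360 to 2714 rpm, of red blood cells from 243 to 1362 rpm and of neurons from 31.7 to 142 rpm. The mitochondrial share was 2.68% to 3.90% in the 8 and 5.78% to 17.4% in the others. ZT6 and ZT18 cannot be told apart from this series of libraries. Arntl, the targeted gene, was counted over the whole gene, and its reads ranged from 1 to 468 in controls and from 81 to 354 in mutants. Reads of the removed exon are not separate in these counts, so that the total does not check the deletion. Its log2 difference between mutants and controls was 0.96 ± 0.43 (SE, edgeR adjusted p = 0.639).

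Several members come as closely related pairs, so the sequences were compared first to see whether reads of one could be counted on the other. Csnk1d and Csnk1e encode the δ and ε isoforms of casein kinase 1, and Btrc and Fbxw11 encode β-TrCP1 and β-TrCP2, the F-box proteins that recognize phosphorylated PER. The coding sequences of Csnk1d and Csnk1e were identical at 77.4% of 1224 aligned bases, and those of Btrc and Fbxw11 at 74.3% of 1686. The longest run of bases that the transcripts of a pair had in common was 23 for Csnk1d and Csnk1e and 22 for Btrc and Fbxw11. No stretch of 100 bases was common to both genes of a pair, nor to Csnk2a1 and Csnk2a2, to Gsk3b and Gsk3a, or to Prkaa1 and Prkaa2. The most similar aligned 60 bases of each pair, from the GENCODE transcripts of GRCm38, are shown 5′ to 3′ on the coding strand, with capitals at each base that differs between the paralogs. Even there the casein kinase 1 genes differed at 5 bases and the β-TrCP genes at 8. The windows are coding exon at chr11:120973099-120973158 (minus strand) for Csnk1d, chr15:79426392-79426451 (minus strand) for Csnk1e, chr19:45515937-45515996 (plus strand) for Btrc and chr11:32735217-32735276 (plus strand) for Fbxw11.
Csnk1d: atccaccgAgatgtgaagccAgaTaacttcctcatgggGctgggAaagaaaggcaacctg
Csnk1e: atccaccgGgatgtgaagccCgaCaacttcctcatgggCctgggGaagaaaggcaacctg
Btrc: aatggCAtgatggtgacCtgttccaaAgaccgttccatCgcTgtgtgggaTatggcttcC
Fbxw11: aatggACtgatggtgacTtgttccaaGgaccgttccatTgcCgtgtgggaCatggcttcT

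The E-box, the DNA element through which CLOCK and BMAL1 act, was then looked for near the start sites, because a direct response to Bmal1 loss is usually sought there. RefSeq promoter windows of GRCm38.p6, from 250 bases before to 50 bases after a start site, were at hand for 5 of the 7 members, with 8 windows in all. None held the palindromic E-box CACGTG, which reads the same on both strands. Of 32851 windows of the same length across the genome, 7.15% held it, so that a window without it is the usual case. Among the windows at hand for PER and CRY genes, one of Per1 and that of Cry1 held it, and those of Per3 and Cry2 did not. The 30 bases around each match are shown, with the motif in capitals, as examples of the element. Those 30 bases lie at chr11:69098771-69098800 on the plus strand for Per1 and at chr10:85185097-85185126 on the minus strand for Cry1. A match describes letters and is not evidence of binding, and its absence says only that these letters are not in the windows.
Per1: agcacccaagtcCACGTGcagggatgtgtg
Cry1: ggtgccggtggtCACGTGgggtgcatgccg

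All members were expressed well above the filter. Mean reads over the 24 libraries ran from 201.9 for Btrc to 1128 for Gsk3b, and these means lay at or above those of 65.2% of the tested genes for Btrc and of 93.4% for Gsk3b. The coefficient of variation over 24 mice, which mixes genotypes and time points, was between 7.79% for Csnk1d and 18.1% for Btrc. The biological coefficient of variation that edgeR assigned to each was between 13.1% for Csnk1e and 21.4% for Btrc, where the trend over all genes at the members' own expression ran from 16.8% for Gsk3b to 25.8% for Btrc. Each member lay below its trend, and the common value over all genes, many of them with few reads, was 42.4%. In bulk RNA, fewer cells of a type and less RNA per cell cannot be told apart.

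Casein kinase 1 δ, encoded by Csnk1d (ENSMUSG00000025162, GRCm38 chr11:120961749-120991330, minus strand), phosphorylates PER. Its reads in controls ran from 527 through a median of 593 to 701, and in mutants from 541 through 599.5 to 680. The mutant range lay inside the control range. The log2 difference was -0.01 ± 0.07 (SE, 95% interval -0.16 to 0.14, edgeR adjusted p = 0.994). This was the member nearest to no difference between genotypes. An annotated antisense gene, Gm28192, overlaps its exons and had a mean of 4.17 reads.

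Csnk1e (ENSMUSG00000022433, chr15:79417856-79455566, minus strand) encodes the ε isoform, whose tau mutation shortens the day of the hamster. Its reads were 474, 662 and 728 (lowest, median, highest) in controls and 552, 693 and 809 in mutants. The groups overlapped over most of their range. The log2 difference was 0.07 ± 0.07 (SE, 95% interval -0.07 to 0.22, edgeR adjusted p = 0.914).

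Csnk2a1 (ENSMUSG00000074698, chr2:152226839-152281852, plus strand) encodes a catalytic subunit of casein kinase 2, which phosphorylates PER2 and BMAL1. Controls had 405, 523.5 and 676 reads (lowest, median, highest) and mutants 417, 569.5 and 633. All mutants lay inside the range of the controls. With all mice in the fit, the difference was the greatest of the 7, at 0.10 ± 0.09 on the log2 scale (SE, 95% interval -0.08 to 0.29, edgeR adjusted p = 0.893). This rank did not hold in every fit. Without control ZT10 replicate 1, Csnk2a1 was at 0.062 and Gsk3b at 0.095.

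Glycogen synthase kinase 3β, the product of Gsk3b (ENSMUSG00000022812, chr16:38089001-38246084, plus strand), phosphorylates several clock proteins, CRY2 and the nuclear receptor REV-ERBα among them. Reads in controls were 872, 1129.5 and 1215 (lowest, median, highest), and in mutants 977, 1136.5 and 1404. The medians were close, and the mutants reached higher, with their greatest values of 1297 and 1404 at ZT6. The log2 difference was 0.09 ± 0.07 (SE, 95% interval -0.05 to 0.24, edgeR adjusted p = 0.864), which was the lowest p among the members.

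Prkaa1 (ENSMUSG00000050697, chr15:5143861-5181899, plus strand) encodes the α1 catalytic subunit of AMP-activated protein kinase, which senses cellular energy and phosphorylates CRY1. Its reads were 262, 349.5 and 432 (lowest, median, highest) in controls and 264, 355.5 and 551 in mutants. A single mutant library of ZT10 held the value of 551, and its partner of the same time point held 264, the lowest of the mutants. The log2 difference was 0.04 ± 0.11 (SE, 95% interval -0.18 to 0.26, edgeR adjusted p = 0.981).

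Btrc (ENSMUSG00000025217, chr19:45363734-45530013, plus strand) had the fewest reads, with 129, 191.5 and 272 (lowest, median, highest) in controls and 134, 203.5 and 252 in mutants. Mutants again lay within the control range. Its log2 difference was 0.04 ± 0.13 (SE, 95% interval -0.22 to 0.29, edgeR adjusted p = 0.984), the widest interval of the 7. Gm6807, which overlaps its exons on the opposite strand, had a mean of 8.88 reads.

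Fbxw11 (ENSMUSG00000020271, chr11:32642724-32746816, plus strand) had 364, 464 and 613 reads (lowest, median, highest) in controls and 364, 490.5 and 573 in mutants. The groups started at the same value, and the log2 difference was 0.05 ± 0.09 (SE, 95% interval -0.13 to 0.24, edgeR adjusted p = 0.965).

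**Figure D1:**
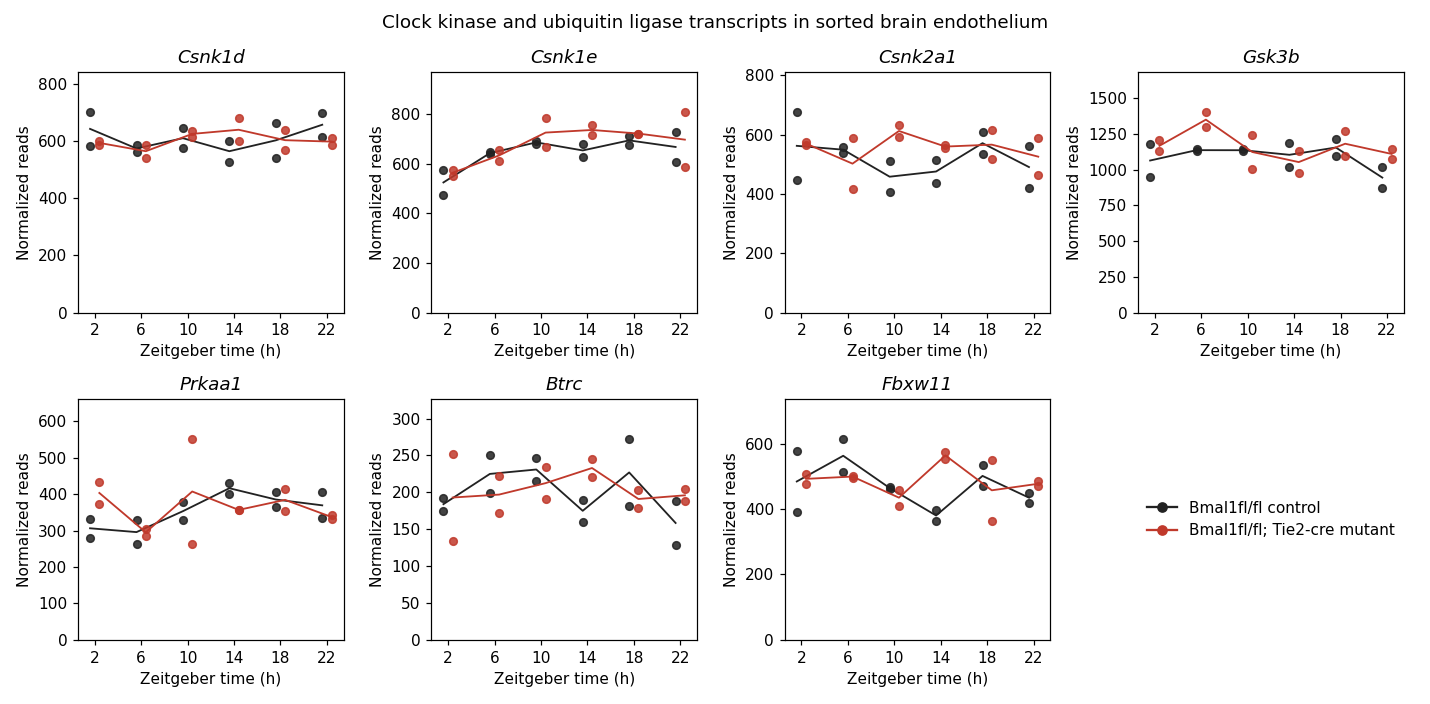
Normalized reads per library (points, 1 mouse each) against zeitgeber time in hours for the 7 members, with lines through the mean of the 2 mice of each time point, controls in black and mutants in red. The axes start at 0; the ranges of the genotypes overlap in every panel, and Csnk1e is lowest at ZT2 in both.

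Across the members, 0 of 7 passed an adjusted p of 0.05 in the genotype difference, where 0.271% of all tested genes did (42 of 15493). At an unadjusted p of 0.05 the count was also 0 of 7, against 6.95% of all genes. DESeq2 gave 0 of 7 as well, and it called 1.11% of the 8885 genes to which it gave an adjusted p (99). The median log2 difference of the members was 0.05 and that of all tested genes 0.0033, and 6 of 7 members had a positive value, as did 7844 of the 15493 genes tested. Their median size regardless of sign was 0.05, compared with 0.16 over all genes, and the median SE was 0.09 in the members and 0.21 over all genes. The upper bounds of the 95% intervals allow a rise of at most 0.29 on the log2 scale in any member, and the lower bounds a fall to at most -0.22. The i5 index, a barcode of the library, was of 1 kind in most controls and of the other in most mutants. With it as a term the value of Prkaa1 was -0.10, against 0.04 without it, and that of Csnk2a1 was 0.03, against 0.10. The 95% intervals with this term reached down to -0.37 for Prkaa1 and up to 0.37 for Btrc. Within the ZT6 and ZT18 mice alone Btrc was at -0.20, Fbxw11 at -0.13, Csnk2a1 at -0.05 and Csnk1d at 0.01, and within the mice of the other 4 time points Btrc was at 0.15, Fbxw11 at 0.14, Csnk2a1 at 0.17 and Csnk1d at -0.03. For these 4 genes the sign therefore differed between the series, and every interval held 0. The intervals were wider than with all mice. That of Btrc ran from -0.65 to 0.26 in the ZT6 and ZT18 mice and from -0.19 to 0.48 in the others.

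**Figure D2:**
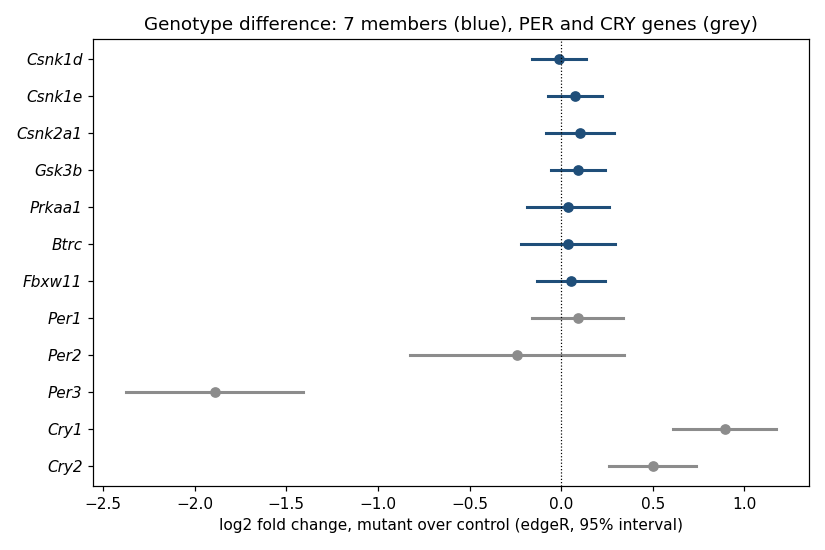
Log2 fold change of mutants over controls (x axis; dots, edgeR estimate; bars, 95% interval) for the 7 members in blue and the PER and CRY genes in grey, n = 12 mice per genotype. The 7 member intervals all cross 0 and stay between -0.22 and 0.29, whereas those of Per3, Cry1 and Cry2 do not cross 0.

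The substrates gave a reference for what the same libraries can show. Per3, a member of the PERIOD family, fell by 1.89 ± 0.24 on the log2 scale in mutants (SE, edgeR adjusted p = 4.2e-05). Cry1, which encodes a repressor of CLOCK and BMAL1, rose by 0.89 ± 0.14 (edgeR adjusted p = 0.00076). Cry2, its relative, had a difference of 0.50 ± 0.12 (edgeR adjusted p = 0.0551), and Per1 and Per2 had values of 0.09 ± 0.12 and -0.24 ± 0.29. No member interval reached a change of the size of Per3 or Cry1.

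Rhythms within a genotype were tested with meta2d, which joins JTK_CYCLE and Lomb-Scargle p-values, at a period of 24 h. In controls 0 of 7 members had a q below 0.05, and so did 0 of the 15493 tested genes (0%), while the unadjusted p was below 0.05 in 1 of 7 members and in 2.43% of all genes (377). At the wider q of 0.6 the count was 0 of 7, against 0.310% of all genes (48). In mutants 0 of 7 members passed either q, against 0% of all genes at 0.05 and 0.0387% at 0.6 (6 genes), and 0 of 7 had an unadjusted p below 0.05, against 2.27% of all genes (351). The cosine fitted in edgeR within each genotype gave 0 of 7 in both, with 14 genes passing an adjusted p of 0.05 in controls and 0 in mutants. With the ZT6 and ZT18 series as a term those gene counts were 57 and 31, and 0 of 7 members passed in either. At an unadjusted p below 0.05 the cosine held 1 of 7 members and 4.43% of all genes (686) in controls, and 0 of 7 and 4.16% (645) in mutants.

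Prkaa1 was the 1 member with an unadjusted meta2d p below 0.05 in controls (p = 0.0328, exact in its JTK_CYCLE part, q = 1.00, n = 12). The ZT2 controls had 332 and 281 reads, those of ZT6 330 and 262, those of ZT10 329 and 378, those of ZT14 432 and 401, those of ZT18 365 and 406, and those of ZT22 405 and 334. The ZT2 and ZT6 mice were low and the ZT14 mice high, with no overlap between them. The fitted peak was at ZT16.1 with a relative amplitude of 16.3%. The ZT2 mutants had 374 and 433 reads, those of ZT6 305 and 286, those of ZT10 551 and 264, those of ZT14 358 and 356, those of ZT18 355 and 414, and those of ZT22 332 and 343. They showed no such order, and the relative amplitude was 3.37% (meta2d p = 1.00, q = 1.00, n = 12). The difference between the genotypes in this rhythm was tested as an interaction and did not pass (edgeR p = 0.328, adjusted p = 1.00, n = 24). With 1 control mouse left out in turn, the unadjusted p in controls ran from 0.0118 without control ZT18 replicate 1 to 0.128 without control ZT6 replicate 2. The cosine fitted to the control mice of ZT2, ZT10, ZT14 and ZT22 alone, an analysis added after the data were seen, gave an adjusted p of 0.954 in edgeR, against 0.962 with all 12 controls, 1.00 with the replicate block and 0.698 with the ZT6 and ZT18 series as a term. Its unadjusted p was below 0.05 in those 3 fits and not in the fit without the ZT6 and ZT18 mice.

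On the deposited reads, the other 6 members had meta2d p-values of at least 0.831 in controls and, with Prkaa1, of at least 0.281 in mutants. The size of cosine that the data still allow was read from a joint 95% region of the cosine and sine terms. This fit was on log2(reads + 1) after the reads were rescaled by TMM, the library scaling of edgeR, and not on the deposited reads. In controls the upper bound of the peak-to-trough ratio was 1.36-fold for Csnk1d, 1.53-fold for Gsk3b, 1.59-fold for Csnk2a1, 1.62-fold for Fbxw11, 1.65-fold for Csnk1e, 1.93-fold for Prkaa1 and 2.08-fold for Btrc. In mutants the bounds lay between 1.25-fold for Csnk1d and 1.87-fold for Btrc. Per2, a strongly cycling clock gene, had a fitted peak-to-trough ratio of 25.6-fold in controls, and Cry1 had 2.88-fold. A cosine of the size of Per2 was therefore outside the region for every member in controls. The fitted ratio of Cry2 in controls, 1.80-fold, lay below the upper bounds of Prkaa1 and Btrc and above those of the other members. The lower bound was 0 in both genotypes for every member except Prkaa1 and Csnk1e. The regions that left out 0 were those of Prkaa1 in controls (amplitude 0.29, region 0.10 to 0.47 in log2 units) and of Csnk1e in both genotypes (0.02 to 0.36 in controls and 0.01 to 0.35 in mutants). These regions are not adjusted for the number of genes.

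**Figure D3:**
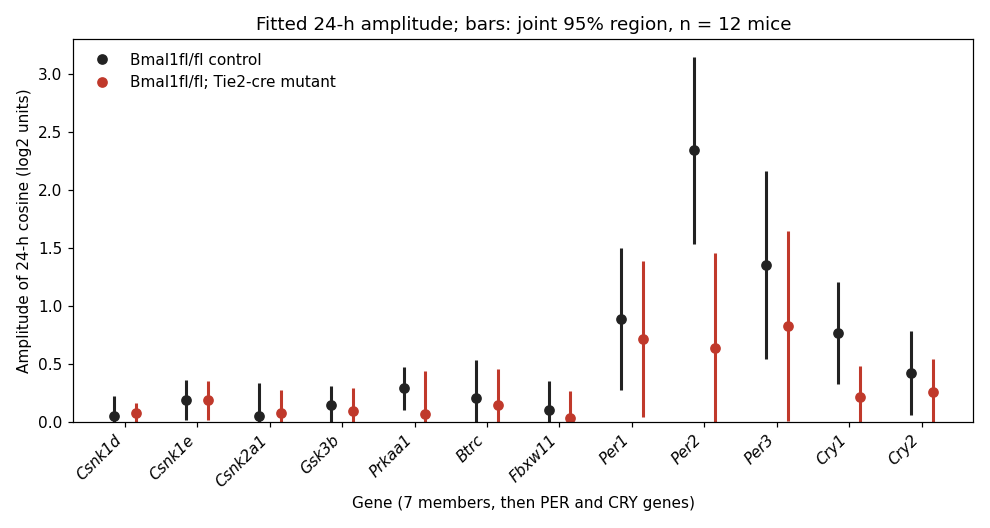
Amplitude of a fitted 24-h cosine in log2 units of TMM-rescaled reads (y axis; dots, estimate; bars, joint 95% region; n = 12 mice per genotype) for the 7 members, then the PER and CRY genes, controls in black and mutants in red. The highest bound of a member in controls is 0.53 for Btrc, and the lower bound of Per2 in controls is 1.53.

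Both genotypes were then fitted together, to look for a daily change that they have in common. Again 0 of 7 members passed an adjusted p of 0.05, as did 0.503% of all tested genes (78), and 1 of 7 had an unadjusted p below 0.05, against 5.18% of all genes (803). DESeq2 called 0 of 7, and 1.36% of the 9185 genes to which it gave an adjusted p (125). The member was Csnk1e, with an amplitude of 0.18 on the log2 scale and a peak at ZT14.6 (edgeR p = 0.0053, adjusted p = 0.405, n = 24).

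For Csnk1e the ZT2 controls had 576 and 474 reads, those of ZT6 638 and 648, those of ZT10 693 and 680, those of ZT14 681 and 627, those of ZT18 713 and 676, and those of ZT22 728 and 608. Among mutants the ZT2 mice had 552 and 576, those of ZT6 612 and 656, those of ZT10 668 and 784, those of ZT14 718 and 755, those of ZT18 722 and 722, and those of ZT22 586 and 809. In both genotypes the ZT2 mice were the lowest, below every mouse of the other time points. After TMM rescaling the genotypes had nearly the same fitted cosine on log2(reads + 1). Its amplitudes were 0.19 and 0.18, and its peaks ZT14.4 and ZT14.6, for controls and mutants. Without that rescaling the genotypes were less alike, at 8.60% (controls) against 11.6% (mutants) for the amplitude relative to the level by meta2d. The test for a difference in rhythm gave p = 0.995 (edgeR, adjusted p = 1.00, n = 24). For each genotype alone the results differed with the method and with the scaling of the reads. The 95% region of the cosine fitted to TMM-rescaled reads left out 0 in both genotypes, as given above. By meta2d, on the deposited reads, the unadjusted p was 0.831 in controls and 0.281 in mutants (n = 12 in each). By edgeR, with TMM, it was 0.117 and 0.0965 (n = 12 in each). In controls the meta2d p was lower after TMM rescaling of the reads, though not below 0.05 (n = 12). With 1 mutant mouse left out in turn, the meta2d p in mutants ran from 0.0081 without mutant ZT22 replicate 2 to 0.748 without mutant ZT2 replicate 1. The next lowest was 0.123, without mutant ZT10 replicate 2. In controls it ran from 0.162 without control ZT22 replicate 1 to 0.997 without control ZT2 replicate 2.

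With TMM scaling, the unadjusted p of Csnk1e stayed below 0.05 when conditions of the libraries were put in the fit. With the ZT6 and ZT18 series as a term, the shared cosine had p = 0.0075 (n = 24), and without those mice, in an analysis added after the data were seen, p = 0.0232 (n = 16). Csnk1e was correlated with the summed level of 7 genes that respond to tissue dissociation, Fos and Jun among them (Pearson's r = 0.489 over 24 libraries, as a description), and the median of that sum was 7455 rpm. In the ZT2 libraries, where Csnk1e was lowest, those genes were at 4037 and 2610 rpm in controls and at 5513 and 3373 rpm in mutants. In the ZT14 controls they were at 3556 and 3316 rpm, with 681 and 627 reads of Csnk1e, and in the ZT22 controls at 9869 and 3868 rpm, with 728 and 608 reads. With that sum as a term, the p of Csnk1e was 0.0032 (edgeR adjusted p = 0.271). On the deposited reads with no further scaling the amplitude was 0.15, against 0.18 with TMM, and the p was 0.0424 (edgeR adjusted p = 0.995). The TMM factors of the ZT14 controls, near the fitted peak, were 0.873 and 0.896, the lowest of the 24 libraries. With TMM but no filter on low genes the p was 0.0885.

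With time point as a factor in place of a cosine, 13.4% of all tested genes passed an adjusted p of 0.05 (2070) and 0 of 7 members did. The lowest adjusted p of a member was 0.0916, for Csnk1e, which was also the only member of the 7 with an unadjusted p below 0.05, against 23.7% of all genes. Neither count can be told from the share of all genes with only 7 members. The differences between time points include the contrast between the ZT6 and ZT18 libraries and the others. In that contrast Gsk3b had a mean of 1206 reads in the 8 libraries and 1088 in the 16, a ratio of 1.11, the greatest of the 7. Prkaa1 had 340.4 and 368.9, a ratio of 0.923, which was the lowest.

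For the other members the shared cosine (n = 24) gave p = 0.0992 for Prkaa1, with an amplitude of 0.17, and p = 0.200 for Btrc, with 0.15. Gsk3b had p = 0.400, Csnk1d p = 0.683, Fbxw11 p = 0.775 and Csnk2a1 p = 0.942, with amplitudes of 0.07, 0.04, 0.04 and 0.02 (n = 24). These are all from edgeR, and the median amplitude of the 7 members was 0.07. That of all tested genes was 0.18. The SE of the genotype difference was larger over all genes too, as given above.

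A difference in rhythm between genotypes was called in 0 of 7 members and in 0% of all tested genes by edgeR, with 660 genes (4.26%) and 0 of 7 members at an unadjusted p below 0.05. DESeq2 called 1 gene in all and no member. The lowest p of a member was 0.195, for Gsk3b. Its ZT6 mutants had 1297 and 1404 reads where the controls had 1144 and 1130, and its ZT22 mutants had 1078 and 1143 where the controls had 1018 and 872. Fbxw11, picked out after its values were seen, had 554 and 573 reads in mutants and 364 and 396 in controls at ZT14, and 364 and 550 against 469 and 533 at ZT18. The genotypes did not overlap at ZT14 and did at ZT18. With time point as a factor, the interaction with genotype gave p = 0.397 for Fbxw11 and 0.468 for Gsk3b (edgeR, adjusted p = 0.982 and 0.989, n = 24). That test called 0 of 7 members and 0.0129% of all genes, and at an unadjusted p below 0.05 it held 0 of 7 members and 5.22% of all genes.

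Levels of different members were compared within each mouse as reads per kilobase of annotated exon. In controls the order was Csnk1d (121.1 ± 11.5, SD), Gsk3b (110.9 ± 10.6), Fbxw11 (108.9 ± 17.6), Csnk1e (97.9 ± 10.5), Prkaa1 (76.2 ± 11.3), Csnk2a1 (73.0 ± 11.3) and Btrc (11.8 ± 2.40), with n = 12. Of the 6 neighbouring pairs, 3 had p below 0.05 by an exact sign-flip permutation test within mice. The neighbours were set by ranking these same values, and the p-values are not adjusted over the 6 pairs. These were Csnk1d over Gsk3b (p = 0.0327), Csnk1e over Prkaa1 and Csnk2a1 over Btrc (each exact p = 0.00049, the smallest that 12 mice allow). The first of these had p of up to 0.0654 when 1 control mouse was left out, which 6 of the 12 mice brought about: both of ZT2, both of ZT22, ZT10 replicate 1 and ZT18 replicate 1. In mutants the order was the same except that Csnk2a1 (78.4 ± 8.78) and Prkaa1 (78.3 ± 16.3) changed places, and 2 of 6 pairs differed.

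The order rests on the length each gene is given. Btrc has 16908 bases of annotated exon in all and 3037 in its longest coding transcript. Divided by the longest coding transcript, an alternative added after the data were seen, Btrc had 65.9 ± 13.3 reads per kilobase in controls and was still the lowest. Csnk1e was then the highest, at 203.3 ± 21.9, followed by Csnk1d at 165.4 ± 15.7. Per kilobase of exon, Csnk1d stood above Csnk1e by 0.31 on the log2 scale, and by this other length it stood below. Which casein kinase 1 gene had the higher level thus depended on the length used, while Btrc was the lowest member by either.

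Pairs of paralogs that can replace each other in part were compared as ratios within a mouse, where the length of the genes cancels between genotypes. The log2 ratio of Csnk1d to Csnk1e was -0.08 ± 0.23 in controls and -0.16 ± 0.18 in mutants (SD, n = 12 each), and the difference of -0.08 was within the spread (exact permutation p = 0.259). The ratio of Btrc to Fbxw11 was -1.24 ± 0.26 in controls and -1.26 ± 0.32 in mutants (exact permutation p = 0.862). That of Csnk2a1 to Csnk2a2, the other catalytic subunit of casein kinase 2, was 1.05 ± 0.37 and 0.92 ± 0.42 (exact permutation p = 0.500). For Gsk3b and Gsk3a it was 2.27 ± 0.38 and 2.39 ± 0.28 (exact permutation p = 0.434). Prkaa1 stood 2.81 ± 1.10 above Prkaa2, the α2 subunit of the same kinase, in controls and 2.55 ± 0.57 in mutants (exact permutation p = 0.453). The wide spread in the last pair goes with the low reads of Prkaa2, which ranged from 8 to 126. Mice were permuted between genotypes within time points, 46656 arrangements in all, and 0 of 5 ratios differed between genotypes before any adjustment.

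**Figure D4:**
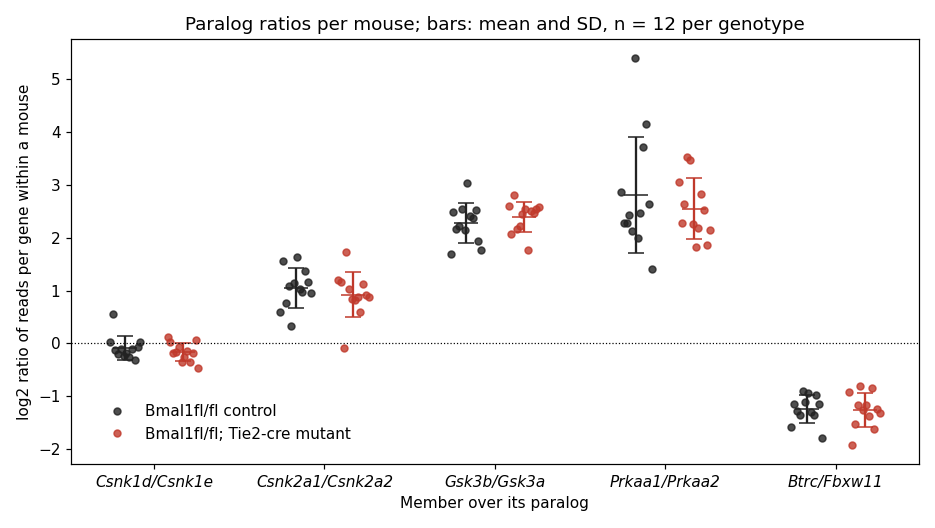
Log2 ratio of the reads of a member to those of its paralog within each mouse (points), with mean and SD, controls in black and mutants in red, n = 12 per genotype. Controls and mutants overlap in all 5 ratios, and the points of Prkaa1 over Prkaa2 spread the most.

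The rest of the pathway was followed through 44 further genes, of which 41 were tested. Among 15 other kinases and kinase subunits, 0 passed an adjusted p of 0.05 between genotypes, and 3 had an unadjusted p below 0.05, where 0.271% and 6.95% of all tested genes did. The 3 were Dyrk1a, a kinase that phosphorylates CRY2 (0.25 ± 0.09 on the log2 scale, edgeR p = 0.0115, adjusted p = 0.520), Cdk5, a cyclin-dependent kinase (-0.61 ± 0.23, p = 0.0128, adjusted p = 0.530) and Csnk2a2 (0.25 ± 0.12, p = 0.04998, adjusted p = 0.719; n = 24 for each). The next in order of p were Prkab1 (0.24 ± 0.12), Mapk8, which encodes the kinase JNK1 (0.23 ± 0.12), and Prkag2 (0.20 ± 0.12). Prkab1 and Prkag2 encode regulatory subunits of AMP-activated protein kinase. The median log2 difference of the 15 was 0.08.

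Among 6 protein phosphatase genes, which oppose the kinases, 0 passed the adjusted p, and their log2 differences lay between -0.10 and 0.02. Among 11 genes of SCF subunits and other ubiquitin ligases 0 passed it. Cul1, the SCF scaffold, had a difference of 0.01 ± 0.10, and Rbx1, its RING subunit, -0.27 ± 0.18 (edgeR p = 0.145, n = 24). Among 4 deubiquitinase genes 0 passed it, and Usp2 had 0.02 ± 0.26. The 5 PER and CRY genes were the exception, with 1 that rose and 1 that fell, as described.

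In the shared rhythm, 0 of 15 kinases, 0 of 6 phosphatases, 0 of 11 ligases and 0 of 4 deubiquitinases were called, and 3 of the 5 PER and CRY genes were, where 0.503% of all tested genes were. Per1 had an amplitude of 0.76 (edgeR adjusted p = 0.0285), Per2 of 1.51 and Per3 of 1.15 (both adjusted p = 0.0038). Casein kinase 1 α, the product of Csnk1a1 and the third isoform that can act on PER, had an amplitude of 0.14 with a peak at ZT13.4 (edgeR p = 0.0150, adjusted p = 0.660, n = 24). The phosphatase gene Ppp5c, whose product acts on casein kinase 1, had 0.22 with a peak at ZT12.8 (edgeR p = 0.0212, adjusted p = 0.756, n = 24). Both were picked out for an unadjusted p below 0.05, which 1 of 15 kinases, 1 of 6 phosphatases and 5.18% of all tested genes had.

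The members did not follow each other closely over the 24 libraries. Pearson's r of log2 CPM between pairs lay between -0.296, for Csnk1d and Fbxw11, and 0.347, for Gsk3b and Btrc, and it was 0.143 for Csnk1d and Csnk1e. These are descriptions, since the libraries share time points and the library series. Among 9896 genes with a mean of at least 50 reads, the most like Csnk1e were Rhob (r = 0.744), Eif4b (0.727) and Jun (0.713). Gsk3b was most like Ankhd1 (0.835), Birc6 (0.774) and Iqgap1 (0.770). Csnk2a1 was most like Zic5 (0.751), Tmem11 (0.743) and Cpd (0.688), and Prkaa1 like Bud23 (0.717), Gm6563 (0.704) and Gm37652 (0.677). For Btrc the genes were Znfx1 (0.732), Pmaip1 (0.693) and Prelid3b (0.660), for Fbxw11 Pml (0.707), Foxl2 (0.680) and Ddx39b (0.678), and for Csnk1d Fam50a (0.678), Med7 (0.629) and Map2k4 (0.617). No member was among the genes most like another member, and Jun belongs to the 7 dissociation-responsive genes named above. The dissociation response entered the fit of Csnk1e only as a term, and its part in the pattern was not tested beyond that.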

How the data were processed

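The data are 24 RNA-seq libraries, 1 mouse each, from 12 control and 12 mutant mice. Between 10000 and 20000 CD31-positive cells were sorted per mouse, and strand-marked total RNA libraries were sequenced over 3 lanes. STAR 2.5.3a was the aligner (build GRCm38) and SAMtools 1.3.1 merged the lanes. The authors then used PORT to bring the libraries to a common size and deposited whole-number counts per Ensembl gene. The original depth is therefore unknown, and whether strand was used in counting is not given in the sources used here, so reads of a gene and of an overlapping antisense gene may not be separated. Groups, time points and replicate numbers came from the sample labels. P-values measure the spread between mice.

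A gene was tested when 6 or more mice of a genotype had at least 5 reads, which left 15493. The quasi-likelihood test of edgeR 4.0.16 (R 4.3.3, TMM) compared genotypes with time point as a factor. Shared and differing rhythms were the cosine and sine of 24 h and their interaction with genotype. Meta2d, JTK_CYCLE and Lomb-Scargle joined by Fisher's method, was computed by a Python 3.11.15 version of MetaCycle's code (NumPy 2.4.6, SciPy 1.17.1). DESeq2 1.42.0 was an alternative. P-values were adjusted over all genes tested by Benjamini and Hochberg's method. Levels per kilobase used GENCODE exons, and ratios were of reads plus 1. Each step was tested on simulated counts. In that test meta2d recovered few changed genes at a q of 0.05, so its recovery was judged by the unadjusted p, and the amplitude for the rhythm difference was raised after a first try.

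The members, gene lists, tests and alternatives were chosen with earlier results of these data known. Named genes are the 7 members, genes of the pathway lists that passed an adjusted p of 0.05, the 10 other pathway genes with the smallest genotype p, the 3 genes most correlated with each member, and Arntl; Cul1, Usp2, Csnk1a1, Ppp5c and paralogs are named besides. Marker lists were endothelium, pericyte and smooth muscle, microglia and macrophage, astrocyte, oligodendrocyte, neuron, red blood cell and dissociation response. Alternatives were other filters and scalings, covariates, other tests, subsets of time points, another gene length and each mouse left out in turn. One gene of the lists is not reported here by name.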

Additional observations from a re-analysis of the deposited data

How the results depend on the processing

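No member was called in any alternative of the genotype difference (35 run), the rhythm difference (36) or the shared rhythm (36), nor by meta2d (16 in each genotype) or the edgeR cosine within a genotype (4 each). The log2 genotype value changed sign for Btrc with the other cell type markers (-0.0088) or the dissociation response genes (-0.135) as a term and in the ZT6 and ZT18 mice (-0.195), where Fbxw11 (-0.128), Csnk2a1 (-0.0479) and Csnk1d (0.0116) also changed sign. For Prkaa1 it did so with the i5 index (-0.104) or the dissociation genes (-0.0572). With 1 mouse left out it ran from -0.0333 to 0.00874 for Csnk1d, -0.0455 to 0.0852 for Prkaa1 and -0.0299 to 0.0857 for Btrc. It kept its sign for the other 4, from 0.0458 to 0.101 for Csnk1e and 0.0625 to 0.143 for Csnk2a1. For Gsk3b it ran from 0.0692 to 0.12 and for Fbxw11 from 0.0179 to 0.0908. The causes were not tested.

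The number of all genes called for genotype was 42, 141 with no filter, 99 by DESeq2, 7 with the i5 index and 3 in the ZT6 and ZT18 mice; with 1 mouse left out it ran from 25 (without mutant ZT6 replicate 2) to 68 (without mutant ZT6 replicate 1). For the rhythm difference it was 0, and 52 with no filter, 1 by DESeq2 and with the i5 index, cell type markers or the library series as a term, 2 with time as a factor and 5 in the ZT2, ZT10, ZT14 and ZT22 mice, with 0 to 1 for left-out mice. For the shared rhythm it was 78, and 231 with no filter, 125 by DESeq2, 121 with the markers and 2070 with time as a factor, with 52 to 90 for left-out mice. At a meta2d q of 0.6 it was 48 in controls, 19 with no filter and 0 to 82 for left-out mice, and 6 in mutants, 56 by JTK_CYCLE alone, 24 after TMM, 43 with 10 or more reads in every library, 1 with no filter and 0 to 24 for left-out mice.

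In the order of levels, 4 rather than 2 of the 6 mutant pairs stood apart in the same direction on reads per gene or by the longest coding transcript; the pairs that reversed on reads per gene also differed, in the opposite direction. On reads per gene Csnk1d over Gsk3b reversed (-0.843 in controls, -0.944 in mutants), as did Fbxw11 over Csnk1e (-0.462 and -0.481) and Prkaa1 over Csnk2a1 (-0.545, controls). By the longest coding transcript Fbxw11 over Csnk1e (-0.803 and -0.822) and Prkaa1 over Csnk2a1 (-0.692) reversed. With left-out mice 2 to 4 control and 2 to 3 mutant pairs differed; Gsk3b over Fbxw11 in controls ran from -0.00646 to 0.0835, and in mutants Csnk1d over Gsk3b from -0.0127 to 0.0544 and Csnk2a1 over Prkaa1 from -0.0288 to 0.0587. The mutant minus control difference in the log2 ratio of Btrc to Fbxw11 ran from -0.0714 to 0.0382, and the differences of the other 4 ratios kept their sign.

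Same-numbered mice of both genotypes did not deviate together (correlations between -0.0087 and 0.0149), so the numbers do not pair the samples. With the replicate block, 45 genes were called for genotype, 79 for the shared rhythm and 0 for the rhythm difference, and no member was called. By the edgeR cosine within a genotype, 14 genes were called in controls and 0 in mutants, 4 and 0 with the block, 57 and 31 with the library series as a term, and 34 and 30 in the ZT2, ZT10, ZT14 and ZT22 mice. Normalization by the authors hides the depth of each library, and 12 mice per genotype left the bounds on rhythms given for each member.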
